A study of Mus musculus with 6 samples.

Results

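Collagen chain genes encode the polypeptides that wind around each other in threes to form collagen molecules, the main structural proteins of the extracellular matrix. They were taken as every probe set whose single platform gene symbol has the form of a collagen chain name, that is Col, a type number, the letter a and a chain number. This gave 82 probe sets for 42 genes, out of 45037 probe sets and 18193 named genes on the array. Each probe set combines several short oligonucleotides designed to a transcript. The names of 5 of the 82 end in _s_at or _x_at, which marks oligonucleotides that can match further transcripts. Among these are the second probe sets of Col6a2, Col18a1 and Col22a1 and the brightest of Col20a1. Levels were measured in muscle of 3 samples labelled SIRT6 knockout (KO) and 3 labelled wild type (WT), 1 Affymetrix mouse array per biological replicate, all on the 129SvJ strain background. SIRT6 is a chromatin-bound NAD-dependent deacylase. The labels name no age, sex, anatomical muscle or further allele, and no treatment.

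Fibrillar collagens (types I, II, III, V, XI, XXIV and XXVII) assemble into the striated fibrils that carry tension in tendon and in the connective tissue sheaths of muscle. Type IV chains form the network of the basement membrane around each muscle fibre and capillary, and type VI forms beaded filaments that link that membrane to the interstitial matrix. FACIT collagens decorate fibril surfaces, multiplexins (types XV and XVIII) sit at the outer face of basement membranes, short-chain collagens form sheets, and transmembrane collagens are shed from cell surfaces. In muscle most fibrillar and type VI chains are made by fibroblasts and related interstitial cells.

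Several facts of the arrays touch every value below. The level of Sirt6 did not part the groups: its probe set read 22.6, 18.3 and 13.7 in KO and 23.2, 15.1 and 21.3 in WT arrays. It is not known here whether that probe set lies in the deleted part, so it does not check the labels. Xist, transcribed from the inactive X chromosome of females, read 715.4 to 1165.7 in KO and 24.5 to 31.3 in WT arrays, so sex and genotype cannot be told apart. The added hybridization controls were 1.93 times as bright in WT replicate 1 as in WT replicate 2, against 0.957 to 1.01 times in the other 4 arrays. Array medians were 11 to 13.5 in KO and 10.8 to 15 in WT arrays. The ratio of 3' to 5' control probe sets of Gapdh, a sign of intact RNA, was 0.811 to 0.846 in KO and 0.827 to 0.835 in WT arrays. Muscle fibre genes were bright in all 6 arrays: Ckm, the muscle creatine kinase, read 9226.7 to 10352.1 in KO and 9280.3 to 16058.6 in WT arrays.

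Most collagen transcripts were lower on average in KO than in WT muscle, and none passed the test. In bulk muscle, fewer cells of a type and less RNA per cell cannot be told apart. Of the 82 probe sets 58 (70.7%) were lower on average in KO arrays, against 51.6% of all probe sets. Changes are given as KO minus WT of log2(intensity + 16), which shrinks those of dim probe sets. The median log2 change was -0.20 over the collagens and -0.01 over all probe sets. For the collagens it was -0.11 without KO replicate 3, -0.12 without WT replicate 1 and -0.064 with each array scaled to its hybridization controls. In 23 collagen probe sets all 3 KO arrays lay below all 3 WT arrays, where 7.29% of all probe sets did so, and in 6 all KO arrays lay above, where 5.02% did so. With the hybridization control scaling these counts were 7 and 11, and without WT replicate 1 they were 24 and 13. The shares of 7.29% and 5.02% belong to all 6 arrays without that scaling and do not apply to these counts. Of the 19 genes given below with a value in every array, 11 had all KO arrays below all WT arrays, and 2 of the 19 (Col1a1 and Col6a3) did so with that scaling. Some of the 19 were chosen by a low p in this same comparison, so these counts partly follow from the choice. limma called 0 of the 82 at an adjusted p under 0.05, where 0.00888% of all probe sets were called, and the lowest adjusted p among them was 0.524. At an unadjusted p under 0.05 there were 19 lower and 2 higher, where 4.99% and 3.57% of all probe sets were lower and higher.

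Of the 42 genes 28 had a probe set averaging at least 16 over the 6 arrays, and 12 had one averaging at least 100. These 12 genes hold 18 probe sets at that level, and all 18 were lower on average in KO arrays, against 47.4% of all probe sets that bright. In 10 of the 18 the groups did not overlap, all with KO below WT, where the share of all probe sets that bright was 10.5%. At an unadjusted p under 0.05 there were 9 of the 18, against 9.6%. Col15a1 reached the level of 100 only through the WT arrays (mean 76.7 in KO and 219 in WT arrays). It counts among the 18, the 10 and the 9. With each array scaled to its hybridization controls 16 of the 18 were lower, and without KO replicate 3 there were 17. The median log2 change of the 18 was -0.80. It was -0.43 without KO replicate 3 and -0.62 without WT replicate 1.

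**Figure D1:**
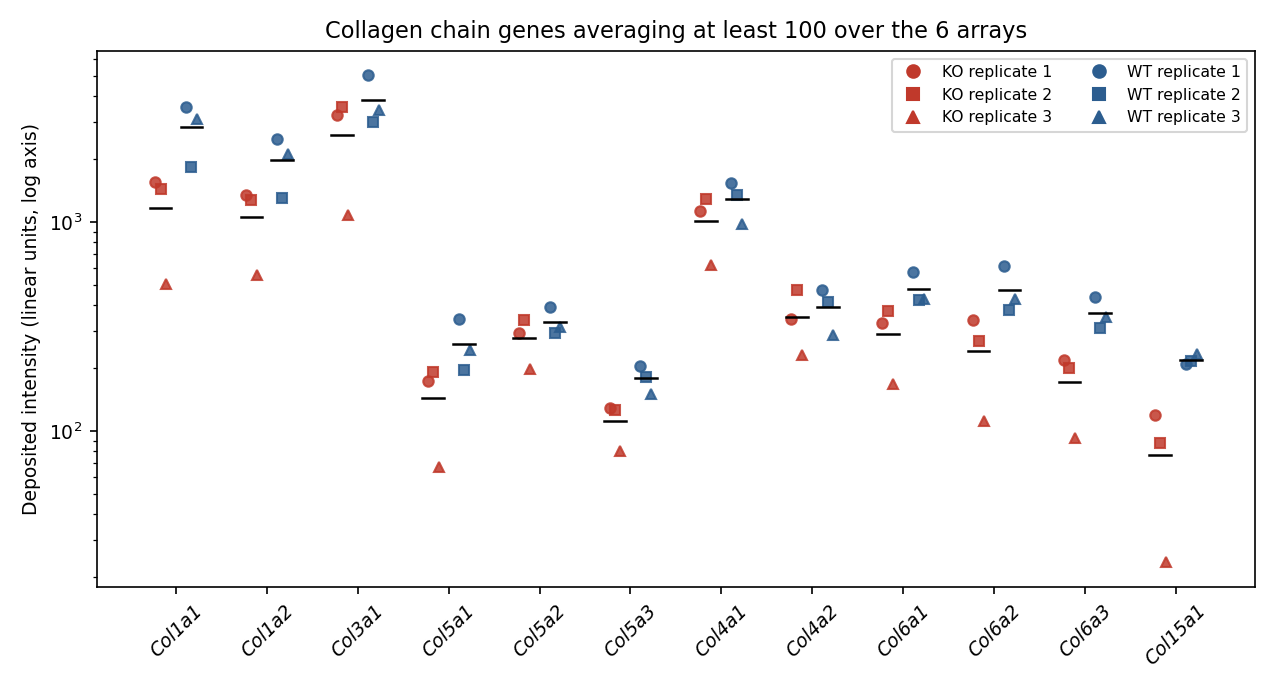
Deposited intensity on a log axis for the brightest probe set of each of the 12 collagen genes averaging at least 100, with KO arrays in red, WT arrays in blue, 1 point per array, and a bar at each group's mean. KO replicate 3 has the lowest value of all 6 arrays for each of the 12 genes, and Col4a1, Col4a2, Col3a1, Col1a2 and Col5a2 overlap between the groups.

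The promoters of chains that shared a direction were set side by side. RefSeq windows (build GRCm38.p6) were matched by symbol for 33 of the 42 genes, 36 windows in all, and the 250 bases before each annotated start were read. Those of Col1a2 (chr6:4505368-4505617, plus strand), Col3a1 (chr1:45311288-45311537, plus strand) and Col15a1 (chr4:47207762-47208011, plus strand) are shown because they belong to 2 of the brightest fibrillar chains and to the gene with the lowest fold of all. Capitals mark GGGCGG (the GC box), CCAAT and TATAAA, or the reverse complement of any of them. No 2 of these motifs overlap in the 3 windows.
Col1a2: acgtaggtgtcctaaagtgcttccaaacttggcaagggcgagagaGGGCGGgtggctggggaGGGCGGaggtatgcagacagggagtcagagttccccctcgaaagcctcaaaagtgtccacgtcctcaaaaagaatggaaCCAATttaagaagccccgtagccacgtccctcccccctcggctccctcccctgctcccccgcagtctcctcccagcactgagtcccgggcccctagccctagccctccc
Col3a1: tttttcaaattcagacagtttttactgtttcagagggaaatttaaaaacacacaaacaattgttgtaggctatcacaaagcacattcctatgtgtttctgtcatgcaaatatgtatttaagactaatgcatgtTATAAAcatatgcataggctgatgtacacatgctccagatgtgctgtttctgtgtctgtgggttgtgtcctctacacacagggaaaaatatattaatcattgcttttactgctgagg
Col15a1: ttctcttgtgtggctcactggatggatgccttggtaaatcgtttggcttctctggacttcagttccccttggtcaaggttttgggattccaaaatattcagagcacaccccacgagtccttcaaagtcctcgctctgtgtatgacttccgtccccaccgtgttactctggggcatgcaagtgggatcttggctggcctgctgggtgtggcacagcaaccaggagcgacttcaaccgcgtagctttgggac

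The 3 windows share none of these motifs. That of Col1a2 holds 2 GC boxes and 1 CCAAT, that of Col3a1 holds 1 TATAAA, and that of Col15a1 holds none of the 3. Over the 36 collagen windows a GC box stood in 58.3%, against 32.7% of all 32851 promoter windows of that length. CCAAT stood in 36.1% of the collagen windows, against 33.8% of all, and TATAAA in 13.9%, against 12.4%. A match describes these letters only. In the same table Col4a1 and Col4a2 start on opposite strands of chromosome 8, with 21 bases between their start sites, and Col4a5 and Col4a6 start on opposite strands of the X chromosome, with 1343 bases between them.

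Type I collagen, the bulk of the fibril, was read by probe sets of both chains. Col1a1, which encodes the alpha 1 chain, read 1561.8, 1444.4 and 503.2 in KO arrays and 3557.2, 1830.3 and 3115.3 in WT arrays. Every KO array lay below every WT array, with KO replicate 3 lowest and WT replicate 2 nearest to the KO values. The fold of KO over WT was 0.387, with a 95% interval of 0.179 to 0.837 (limma adjusted p = 0.562). At the second probe set of Col1a1 the groups overlapped, at 473.2, 471.2 and 183.7 in KO and 1024, 469.9 and 630.9 in WT arrays (log2 change -0.93). Col1a2, the alpha 2 chain, read 1353.6, 1271.5 and 559.1 in KO and 2489.4, 1304.5 and 2114.9 in WT arrays, a fold of 0.524 (0.275 to 0.999). There the groups overlapped, since KO replicate 1 lay above WT replicate 2. Its second bright probe set did not overlap, at 762 ± 396 in KO and 1841 ± 784 in WT arrays (SD, n = 3 each), a log2 change of -1.34. Without KO replicate 3 the log2 change was -0.85 for Col1a1 and -0.53 for Col1a2, against -1.37 and -0.93 with it.

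Type III and type V chains, which share fibrils with type I, were also lower on average. Col3a1, the chain of the thin reticular fibrils of soft tissue, read 3246.9, 3537.4 and 1080.1 in KO and 5045.1, 2996 and 3440.5 in WT arrays. KO replicates 1 and 2 lay within the WT range and only KO replicate 3 lay below it. The fold was 0.622, with an interval of 0.289 to 1.34 (limma adjusted p = 0.73). Without KO replicate 3 the log2 change of Col3a1 was -0.14, against -0.68 with it. The second probe set of Col3a1 also overlapped, at 137 ± 88.4 in KO and 270 ± 100 in WT arrays (log2 change -1.10). Col5a1, a regulator of fibril diameter, read 173.1, 191.1 and 67.5 in KO and 342.6, 196 and 244.1 in WT arrays, a fold of 0.549 (0.294 to 1.02), and its log2 change of -0.87 was -0.45 without KO replicate 3. The groups did not overlap at any of the 3 probe sets of Col5a1. Col5a3 read 129.2, 125.5 and 79.9 in KO and 204.8, 180.6 and 150.5 in WT arrays, also without overlap, a fold of 0.648 (0.463 to 0.909; limma adjusted p = 0.552). Col5a2 overlapped at 295.8, 338.9 and 197.4 in KO and 392.8, 293.7 and 312.9 in WT arrays (log2 change -0.27), and its log2 change was 0.02 with hybridization control scaling. The dimmer probe set of Col5a2 did not overlap, at 68.1, 62.7 and 32.7 in KO and 130.9, 86 and 82.9 in WT arrays (log2 change -0.73).

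Fibrillar chains better known from cartilage were dim. Col11a2 read 23, 19.7 and 21.4 in KO and 33.2, 33.7 and 52.8 in WT arrays, with no overlap (fold 0.676, 0.515 to 0.888). Col11a1 read 20.3 ± 11.9 in KO and 50.3 ± 17.4 in WT arrays, and Col2a1 read 23.1, 17.8 and 3.7 in KO and 36.3, 17.5 and 45.1 in WT arrays. Col27a1, named here after its values were seen, was the fibrillar gene that lay the other way. It read 51.3, 58 and 53.6 in KO and 8.6, 33.5 and 49.8 in WT arrays, so that all KO arrays were above all WT arrays although the WT arrays spread widely (fold 1.63, 0.926 to 2.87). The other probe set of Col27a1 overlapped, with a log2 change of 0.35. Col24a1 stayed below 16 in every array. Over the 21 fibrillar probe sets 19 were lower on average, with a median log2 change of -0.68. In 9 the KO arrays lay below all WT arrays and in 1 above, where 7.29% and 5.02% of all probe sets did so. Of the 21 probe sets 17 averaged at least 16, a level at which 1821 of all 19376 probe sets lay below and 1130 above. The fibrillar median was -0.39 both without KO replicate 3 and with the hybridization control scaling.

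**Figure D2:**
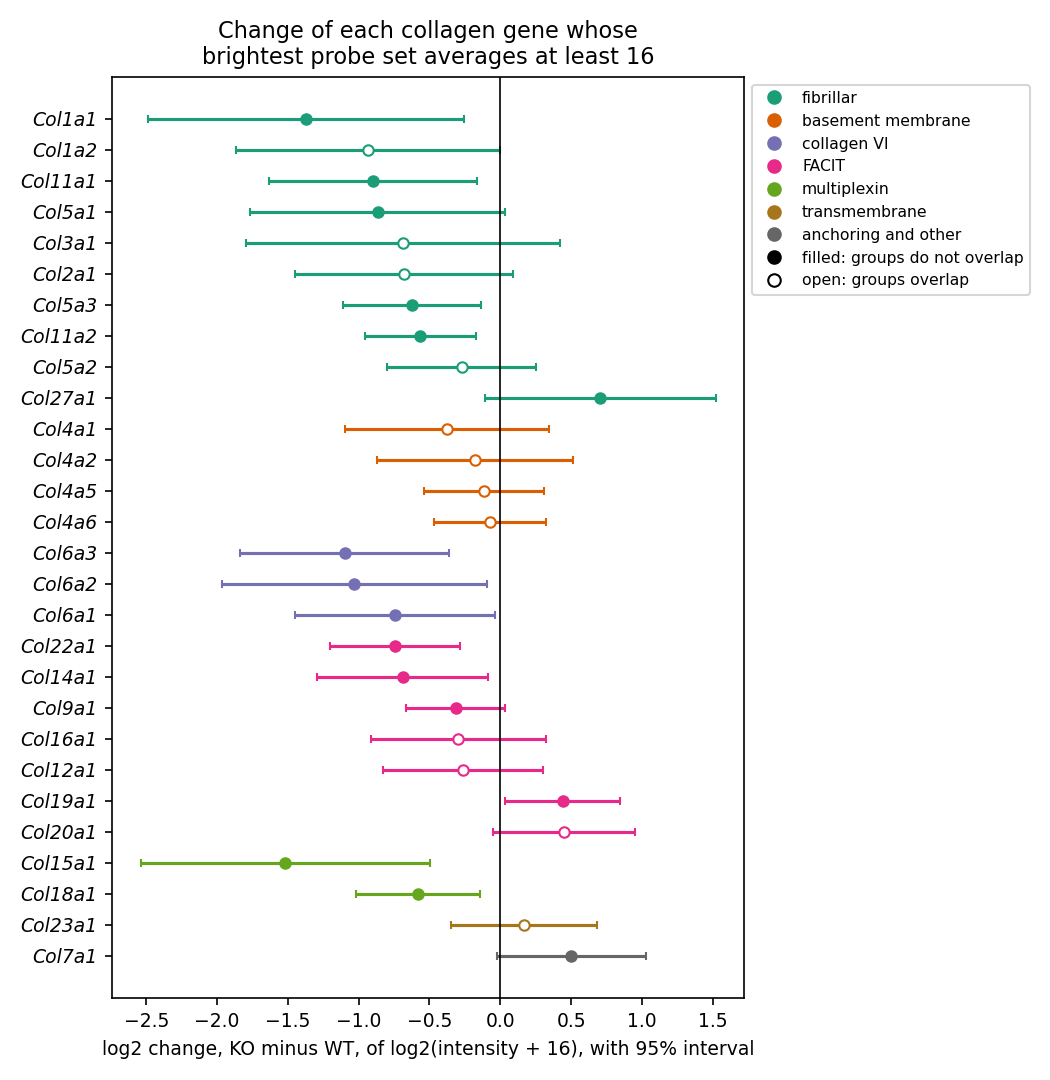
The log2 change (KO minus WT) of each of the 28 collagen genes whose brightest probe set averages at least 16, with 95% limma intervals, coloured by class; filled points are genes whose groups do not overlap. Col15a1 (-1.52), Col1a1 (-1.37) and Col6a3 (-1.10) lie farthest left, and the 4 type IV genes lie between -0.38 and -0.07.

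Type VI collagen was lower in KO arrays at all 3 of its main chains. These chains (alpha 1, alpha 2 and alpha 3) combine into 1 molecule, and mutations in any of them cause muscle disease in humans. Col6a1 read 326.8, 375 and 168.6 in KO and 573.4, 425.6 and 428.3 in WT arrays, a fold of 0.598 (0.366 to 0.977). Col6a2 read 341.3, 270.1 and 111.8 in KO and 616.1, 380.5 and 427.3 in WT arrays, a fold of 0.49 (0.256 to 0.939). Col6a3 read 219.2, 200.3 and 92.7 in KO and 436.8, 309.7 and 352.6 in WT arrays, a fold of 0.467 (0.28 to 0.779; limma adjusted p = 0.529). In all 3 genes every KO array lay below every WT array, with KO replicate 3 lowest, and the same held at the second probe set of Col6a2. With the hybridization control scaling the groups overlapped for Col6a1 (log2 change -0.44) and Col6a2 (-0.73) and did not for Col6a3 (-0.81). Without KO replicate 3 the log2 change was -0.41 for Col6a1, -0.59 for Col6a2 and -0.75 for Col6a3. The alpha 4 and alpha 5 chain genes were dim and lay the other way: Col6a4 read 24.9, 9.4 and 23.3 in KO and 4.3, 4.5 and 4.7 in WT arrays (limma adjusted p = 0.524), while its other probe set overlapped at 8 ± 5.98 in KO and 9.5 ± 4.76 in WT arrays. Col6a5 read 13.3, 3.9 and 4.1 in KO and 1.1, 1.7 and 2.7 in WT arrays. Both were named after their values were seen.

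The multiplexin Col15a1 had the lowest fold of all 82 probe sets. It encodes a chain that anchors basement membranes to the neighbouring fibrils, and mice that lack it develop a mild myopathy. It read 118.6, 88 and 23.5 in KO and 209.7, 215 and 233.3 in WT arrays. The WT arrays agreed closely, at 219 ± 12.4, and all KO arrays lay below them, at 76.7 ± 48.5 (SD, n = 3 each). The fold was 0.349, with an interval of 0.172 to 0.708 (limma adjusted p = 0.529), and without KO replicate 3 the log2 change was -0.99, against -1.52 with it. With the hybridization control scaling it was -1.26 and the groups overlapped. Col18a1, whose C-terminal fragment is endostatin, read 39.3, 50 and 30.8 in KO and 83.4, 61 and 58.7 in WT arrays, again with no overlap (fold 0.669, 0.494 to 0.905). With the hybridization control scaling the log2 change of Col18a1 was -0.34 and the groups overlapped. Its second probe set overlapped without that scaling, with a log2 change of -0.44.

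Type IV genes of the basement membrane were close between the groups. Col4a1, the alpha 1 chain of the ubiquitous network, read 1130.4, 1291.6 and 625.5 in KO and 1534.6, 1346.5 and 981.7 in WT arrays. Only KO replicate 3 lay below all WT arrays. The fold was 0.77, with an interval of 0.468 to 1.27 (limma adjusted p = 0.779). The log2 change of -0.38 was -0.067 without KO replicate 3 and -0.068 with the hybridization control scaling. Col4a2, its partner chain, read 344.8, 474.1 and 232 in KO and 472, 414.1 and 287.4 in WT arrays, a fold of 0.883 (0.547 to 1.42). KO replicate 2 held the highest value of the 6 for Col4a2, and the log2 change of -0.18 turned to 0.07 without KO replicate 3 and to 0.12 with hybridization control scaling. Col4a1 and Col4a2 had the same order of arrays within the WT group, and in the KO group replicate 2 was highest and replicate 3 lowest for both. The WT order is also that of the array medians (15, 12.4 and 10.8 in WT replicates 1, 2 and 3). KO replicate 3 was lowest at the brightest probe set of every collagen gene averaging at least 100, so these orders are not particular to the pair.

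The other type IV chains were dim. Col4a5 read 35.2, 39.7 and 36.2 in KO and 54.5, 29.8 and 42.3 in WT arrays (log2 change -0.11, which was 0.11 with hybridization control scaling and 0.04 without WT replicate 1). Its second probe set had a log2 change of 0.02. Col4a6 read 30.1 ± 2.86 in KO and 33 ± 9.28 in WT arrays. For Col4a3 and Col4a4, the chains of specialised membranes such as that of the kidney glomerulus, no probe set averaged 16. Of 12 type IV probe sets 11 were lower on average, with a median log2 change of -0.17. In 2 dim ones all KO arrays lay below all WT arrays and in 0 above, where 7.29% and 5.02% of all probe sets did so.

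FACIT genes were dim and went both ways. Col14a1, which coats fibrils in tendon and muscle sheaths, read 49.2, 60.5 and 28.6 in KO and 111.2, 69.8 and 69.4 in WT arrays, with no overlap (fold 0.62, 0.408 to 0.943). Of its other probe sets 1 had a log2 change of -0.24 and the other, below an intensity of 2 in every array, one of 0.01. Col22a1, a collagen of the junction between muscle and tendon, read 23.1, 26.3 and 13.3 in KO and 45.7, 55.1 and 35.7 in WT arrays (fold 0.598, 0.435 to 0.822; limma adjusted p = 0.524). Here too the groups did not overlap, nor did they at its second probe set (log2 change -0.59), while its dimmest probe set read 18.9 ± 6.89 in KO and 19 ± 4.65 in WT arrays. Col12a1, Col16a1 and Col9a1 had log2 changes of -0.26, -0.30 and -0.31 at their brightest probe sets. Col19a1 and Col20a1, named after their values were seen, lay higher in KO arrays: Col19a1 at 26.4 ± 3.23 in KO and 15.6 ± 6.08 in WT arrays without overlap, and Col20a1 at 44.9 ± 11.0 in KO and 28.8 ± 10.1 in WT arrays with overlap. Of 24 FACIT probe sets 13 were lower on average and 11 higher, with a median log2 change of -0.02.

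The remaining classes were near the floor of the array. Col7a1, the anchoring fibril collagen of skin, read 37.7, 36.7 and 39.6 in KO and 34.5, 23.5 and 11.8 in WT arrays. All KO arrays lay above all WT arrays by a small margin (fold 1.42, 0.984 to 2.04). Its log2 change of 0.50 was 0.27 without WT replicate 3. The transmembrane Col23a1 overlapped at 15.6, 24 and 18 in KO and 21.4, 19.3 and 6.9 in WT arrays (fold 1.12, 0.786 to 1.61), and its log2 change of 0.17 was -0.05 without WT replicate 3. In 14 genes no probe set averaged 16: Col24a1, Col4a3, Col4a4, Col6a4, Col6a5, Col9a2, Col9a3, Col8a1, Col8a2, Col10a1, Col13a1, Col17a1, Col25a1 and Col26a1. The offset of 16 shrinks the changes of these most. Of them Col8a1, a short-chain collagen of vessel walls, had 1 probe set without overlap, at 6, 12.6 and 0.7 in KO and 19.5, 16.5 and 18.2 in WT arrays.

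Probe sets of a gene mostly shared a direction. Of the 13 genes with more than 1 probe set averaging at least 16, all such probe sets went 1 way in 12, Col4a5 being the exception. Probe sets of 1 gene read the same RNA and are not replicates.

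The classes were unequal between arrays as well as between groups. Among probe sets averaging at least 16, the fibrillar median lay at log2 distances of -0.44, -0.49 and -1.51 from the WT mean in KO replicates 1, 2 and 3. In WT replicates 1, 2 and 3 it lay at 0.38, -0.32 and -0.06. WT replicate 2 was thus nearer to KO replicates 1 and 2 than to WT replicate 1. For type VI the medians were -0.47, -0.53 and -1.60 in KO and 0.33, -0.23 and -0.12 in WT arrays. For type IV they were -0.15, -0.01 and -0.41 in KO and 0.28, -0.03 and -0.18 in WT arrays, where 2 of the 3 KO arrays fall inside the WT range. For all probe sets at that level they were -0.13, 0.10 and 0.06 in KO and 0.19, 0.02 and -0.20 in WT arrays.

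**Figure D3:**
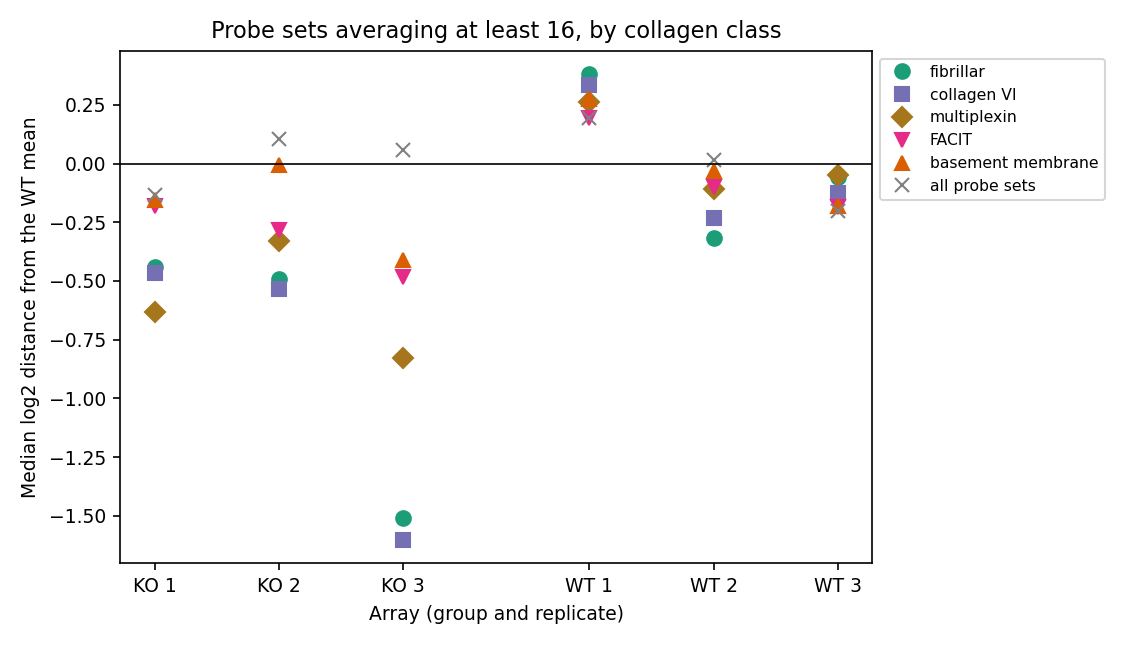
Median log2 distance from the WT mean in each array (KO left, WT right) for probe sets averaging at least 16 in 5 collagen classes and for all probe sets at that level (crosses). In KO replicate 3 the fibrillar and type VI medians lie at -1.51 and -1.60 while the cross lies at 0.06.

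Whether 2 chains changed unequally was tested within arrays, where a common brightness factor of an array largely cancels. The 4 pairs were chosen after the values were seen and set Col1a1, Col3a1, Col6a3 and Col15a1 against Col4a1. The log2 change of Col15a1 minus that of Col4a1 was -1.14 and that of Col6a3 minus Col4a1 was -0.72. For both, the within-array difference was lower in all KO arrays than in any WT array (exact two-sided permutation p = 0.1, the smallest that 3 against 3 arrays allow, and 0.2 adjusted over the 4 pairs). For Col1a1 the difference was -0.99 (exact permutation p = 0.2, adjusted 0.267) and for Col3a1 -0.31 (exact permutation p = 0.5, adjusted 0.5). No pair could reach the threshold in this design, and no difference between whole classes was tested.

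Genes that build collagen molecules were read from lists of synthesis, processing, binding and breakdown genes. Of 55 measured genes 39 were lower and 16 higher on average in KO arrays, with a median log2 change of -0.19. In 12 all KO arrays lay below all WT arrays and in 0 above, where 7.29% and 5.02% of all probe sets did so. With the hybridization control scaling 26 were lower and 29 higher, with 5 below and 4 above, and without WT replicate 1 the counts were 32 and 23, with 14 below and 5 above. The shares just given belong to all arrays without that scaling and do not apply to these settings. limma called 0 of the 55 at an adjusted p under 0.05. At an unadjusted p under 0.05 there were 11 lower and 0 higher, where 4.99% and 3.57% of all probe sets were. Of the 55 genes 46 averaged at least 16, a higher level than most probe sets. Among all 19376 probe sets at that level, KO lay below WT in 1821 and above in 1130. By limma 1516 of them were lower and 1052 higher at that unadjusted p.

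Among 17 modification and folding genes 13 were lower on average. P4ha1, the catalytic subunit of a prolyl 4-hydroxylase that stabilises the triple helix, read 29.3, 29 and 17.9 in KO and 84.8, 74.8 and 58 in WT arrays (log2 change -1.10; limma adjusted p = 0.384). Serpinh1, the collagen chaperone HSP47, read 159.5, 121.5 and 79.3 in KO and 452.9, 265.2 and 314.4 in WT arrays (log2 change -1.41; limma adjusted p = 0.464). Crtap, a cofactor of prolyl 3-hydroxylation, read 39.8 ± 17.2 in KO and 80.6 ± 13.5 in WT arrays. None of these 3 overlapped between the groups. In contrast P4hb and Plod1, which also act on new chains, had log2 changes of -0.14 and 0.23.

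Of 9 processing and cross-linking genes 8 were lower on average. Pcolce, an enhancer of C-propeptide removal, read 176.1, 148.2 and 59.4 in KO and 422.3, 246.2 and 281.9 in WT arrays (log2 change -1.28; limma adjusted p = 0.529). The lysyl oxidase relatives Loxl1 and Loxl3 read 84.0 ± 21.8 and 28.4 ± 5.46 in KO and 146 ± 44.8 and 43.1 ± 10.6 in WT arrays, without overlap. All 8 receptor genes were lower on average and all 8 overlapped, with log2 changes between -0.48 and -0.06. Mrc2 (-0.48), an uptake receptor for collagen fragments, Ddr2 (-0.45), a receptor tyrosine kinase for fibrillar collagen, and the integrin gene Itga10 (-0.30) had the lowest p.

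Breakdown genes were split, 5 lower and 5 higher. Timp1, an inhibitor of matrix metalloproteinases, read 3.8, 21.3 and 9.2 in KO and 36.1, 27.1 and 24.1 in WT arrays, and the collagenase gene Mmp8 was below the level of 16 in all arrays. Mmp2, a gelatinase, read 189 ± 42.1 in KO and 153 ± 18.1 in WT arrays. In the TGF-beta list, a pathway that induces fibrillar collagen genes, 5 of 11 were lower and 6 higher, with a median log2 change of 0.01. Tgfb3 read 54.3, 40.9 and 33.4 in KO and 102.5, 76.9 and 57.9 in WT arrays, and Tgfb2 read 25.0 ± 11.9 in KO and 52.5 ± 16.9 in WT arrays, both without overlap. Smad3, a transducer of the signal, read 171.4, 68.7 and 41.7 in KO and 218.8, 228.3 and 127.7 in WT arrays, with overlap. The highest log2 changes of that list were those of Smad4 (0.67), Tgfbr3 (0.62) and Tgfbr1 (0.57), a further transducer and 2 receptors, all with overlap.

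**Figure D4:**
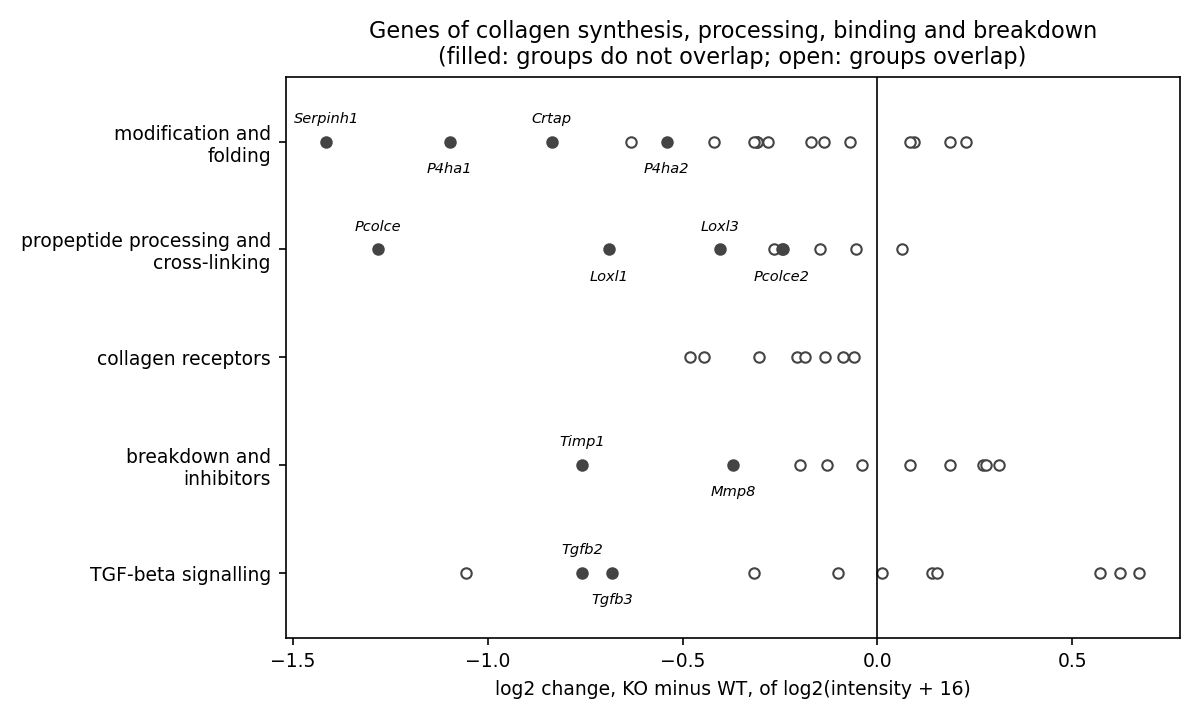
The log2 change (KO minus WT) of each measured gene in 5 lists of collagen synthesis, processing, binding, breakdown and TGF-beta signalling, 1 probe set per gene; filled, named points are genes whose groups do not overlap. All 12 named genes lie left of 0, from Serpinh1 at -1.41 to Pcolce2 at -0.24.

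Markers of cells that make collagen are given beside these values. All 7 tendon markers were lower on average, and their summed intensity was 312.3 to 373.3 in KO and 422.1 to 915.5 in WT arrays. Thbs4 (51.7, 64.4 and 69.3 in KO and 211.2, 87.4 and 122.2 in WT arrays) and Fmod (147 ± 28.2 in KO and 302 ± 104 in WT arrays) did not overlap, and the defining factors Scx and Mkx averaged below 16 in both groups. Of 8 fibroblast markers 7 were lower on average, with sums of 2564.1 to 3123.5 in KO and 3075.8 to 4396.5 in WT arrays. The 7 include Tcf4 (log2 change -0.12), whose place as a fibroblast marker was not checked. Lum read 136.2, 102.1 and 70.7 in KO and 326.7, 143.1 and 256.8 in WT arrays, and Fap read 45.4 ± 12.3 in KO and 84.3 ± 19.4 in WT arrays. Pdgfra, the defining receptor of interstitial fibroblasts, lay the other way at 67.5, 155.6 and 99.6 in KO and 86.7, 67.1 and 59.4 in WT arrays. Dcn, an abundant fibroblast proteoglycan, read 785.2, 1111.9 and 1296.9 in KO and 1360.6, 1035.5 and 1242 in WT arrays, and in KO replicate 3, the array with the lowest collagen values, it stood at the highest of the KO values. Gsn was also highest of the KO values there, and Pdgfra lay between the other KO values. Lum, Fap, Thy1 and Dpt each had their lowest value of all arrays in KO replicate 3. The part of these cells in the collagen values was not tested.

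Other cell types were given by the same counts. Of 7 endothelial markers 1 was lower on average, with sums of 469.5 to 803.5 in KO and 469.8 to 611.8 in WT arrays. Pecam1 and Kdr had log2 changes of 0.32 and -0.39. Of 7 smooth muscle and pericyte markers 4 were lower, with sums of 937.1 to 1460.9 in KO and 1216.5 to 1874 in WT arrays. Acta2, the smooth muscle actin, read 340.2, 255.1 and 105.4 in KO and 802, 585 and 539.2 in WT arrays, and Cnn1 averaged below 16 in both groups. Pdgfrb, Tagln and Rgs5 lay the other way, with log2 changes of 0.45, 0.29 and 0.05, and the median of the list was -0.0029. Of 4 adipocyte markers all 4 were lower (2273 to 4011.6 in KO and 2938.2 to 5749 in WT arrays), with Retn at -0.86 and Lep, which averaged below 16, at -0.43. Of 7 macrophage markers 5 were lower (244.2 to 429.2 in KO and 309 to 504.9 in WT arrays), with Mrc1 at -0.81 and Adgre1 at -0.40.

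Of 5 keratinocyte markers 3 were lower (38.7 to 65.9 in KO and 61.6 to 115.8 in WT arrays), with Krt10 at -0.72 and Krt5 at -0.53, and Krt14, Krt15 and Dsp averaged below 16 in both groups. Of 4 Schwann cell markers 1 was lower (187.2 to 366.3 in KO and 135.9 to 253.8 in WT arrays), with S100b at -0.71 and Mbp at 0.57. Of 5 cartilage and bone markers 2 were lower (49.1 to 96.5 in KO and 65.8 to 76.2 in WT arrays), with Sox9 (which averaged 8.5 in KO and 16.3 in WT arrays) at -0.44 and Sp7 at 0.27. Ibsp and Matn1 averaged below 16 in both groups. Of 7 muscle fibre markers 5 were lower (45555.2 to 47924.1 in KO and 43180.3 to 71472.1 in WT arrays), with Mb at -0.64 and Des at 0.23. Without WT replicate 1, which read 15079.8 to 16058.6 for Acta1, Ckm, Myh4 and Tnnt3 against 9191.4 to 10352.1 in the other 5 arrays, 1 of the 7 was lower. All 4 satellite cell markers were higher on average (98.8 to 101.6 in KO and 65.6 to 94.4 in WT arrays), with Myf5 at 0.65 and Vcam1 at 0.20, while Pax7 averaged below 16 in both groups. limma called 0 of the 65 markers at an adjusted p under 0.05, with 14 lower and 1 higher at an unadjusted p under 0.05, where 4.99% and 3.57% of all probe sets were. Of the 65 markers 52 averaged at least 16, a level at which 1516 of all 19376 probe sets were lower and 1052 higher at that unadjusted p. Of the 65 markers 39 were lower on average, and with the hybridization control scaling 26 were. Fibroblast markers lower on average were 4 of 8 with that scaling and 5 of 8 without WT replicate 1, while all 7 tendon markers were lower with it and 6 without WT replicate 1.

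The scaling of WT replicate 1 moved absolute changes more than relative ones. With each array scaled to its hybridization controls, the median log2 change of all probe sets averaging at least 100 was 0.32, against 0.03 without that scaling. The 18 bright collagen probe sets then had a median of -0.51, against -0.80. Their distance from the median of all probe sets that bright was -0.83 under both. Scaling by 1 factor per array moves all bright probe sets nearly alike, so this distance could hardly change and tests nothing. Leaving out KO replicate 3 moved that distance to -0.44, and leaving out WT replicate 1 moved it to -0.77.

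**Figure D5:**
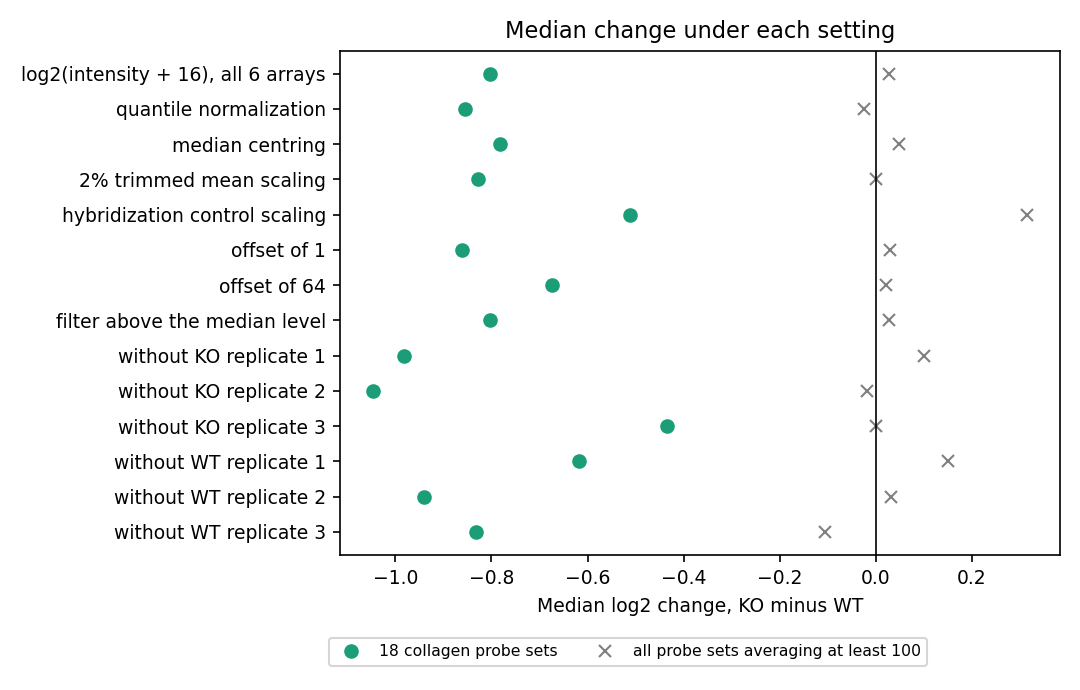
Median log2 change (KO minus WT) of the 18 collagen probe sets averaging at least 100 (green points) and of all probe sets that bright (grey crosses) under each normalization, offset and left-out array. The green points run from -1.05 without KO replicate 2 to -0.43 without KO replicate 3, all left of the cross in the same row.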

How the data were processed

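Total RNA extracted with TriPure was labelled with biotin following the Affymetrix standard, per the labels' protocols. For every probe set and array 1 linear intensity was deposited. The software, scaling and background correction behind the deposited intensities are not stated in the labels. Of 45101 probe sets 64 controls were left out. Intensities were taken as log2(intensity + 16) with no further normalization, since the scaling already applied is unknown, and tested over all 45037 probe sets with limma 3.58.1 (lmFit, eBayes, two-sided, Benjamini-Hochberg) in R 4.3.3. The labels say the replicates are biological. The number of arrays limits the precision, and 0 columns were left unused.

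Symbols came from the platform annotation: 34945 probe sets had 1 symbol, 932 several and 9160 none, so collagen probe sets may be among those not named. Col6a6 and Col28a1 had no probe set of their own symbol. A gene is represented by its probe set of highest mean. Values in every array are given for genes averaging at least 100 and for up to 2 genes of lowest p per class averaging at least 16. In the pathway lists up to 3 genes of lowest p, and in the marker lists up to 2, are named. P4hb, Plod1, Pcolce2, Smad4, Tgfbr1, Tgfbr3, Ckm, Acta1, Myh4, Tnnt3, Pdgfra, Dcn, Gsn, Thy1, Dpt, Tcf4, Pdgfrb, Tagln and Rgs5 were named outside that rule after their values were seen, as were Col11a1, Col2a1, Col4a6, Col12a1, Col16a1, Col9a1 and Col8a1. Members and lists were chosen with earlier results of these data known. The limma step was tested on simulated data. Alternatives were quantile normalization, centring, scaling to a 2% trimmed mean or to hybridization controls, offsets of 1 and 64, a filter on the mean level, limma with trend and robust options, a replicate block, leaving out each array, 1 probe set per gene and a minimum mean of 16. Counts of bright collagen probe sets, list genes and separated named genes under these were chosen after the data were seen.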

Additional observations from a re-analysis of the deposited data

How the results depend on the processing

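Collagen calls at an adjusted p under 0.05 stayed at 0 in every alternative run, and 3 arrays per group and dim probe sets limit what could pass. Over all probe sets limma called 4, against 9 with quantile normalization, 11 with median centring, 8 with trimmed mean scaling, 1 with an offset of 64, 77 with the filter, 15 with the trended and robust variance, 0 with a replicate block, and 1 to 6 with an array left out. Same-numbered arrays deviated from their group means with correlations of -0.00, 0.02 and -0.04, so no shared deviation was seen. The labels do not say whether replicates were paired, and these correlations cannot exclude it. The filter tests fewer probe sets, and its lowest adjusted p for a collagen was 0.0789 by limma. Hybridization control scaling, which lowers WT replicate 1 and moves the median of all probe sets to 0.10, left 7 collagen probe sets with KO below WT and 11 with KO above, against 23 and 6. With an array left out, which makes separation easier, 24 to 35 lay below and 6 to 13 above. Shares of all probe sets are not given for the hybridization control scaling or for left-out arrays, so these counts do not set the collagens against other probe sets. That scaling also gave medians of -0.064 (all collagens), -0.39 (fibrillar), -0.31 (type VI), -0.064 (type IV), 0.044 (FACIT), -0.34 (multiplexin), -0.10 (short-chain) and 0.27 (transmembrane), against -0.20, -0.68, -0.60, -0.17, -0.02, -0.58, -0.25 and 0.17 without it, and turned Col5a2 to 0.024, Col4a2 to 0.12 and Col4a5 to 0.11. With an offset of 1 the medians were -0.47 (all collagens), -0.38 (type IV), -0.48 (short-chain) and 0.38 (transmembrane), and with 64 they were -0.083 (all), -0.45 (fibrillar), -0.061 (type IV), -0.34 (multiplexin), -0.10 (short-chain) and 0.063 (transmembrane). Filtering gave -0.43 (all), -0.25 (FACIT), -0.64 (short-chain) and 0.50 (anchoring and other). A minimum mean of 16 gave -0.58 (all), -0.26 (FACIT) and 0.50 (anchoring and other), and 1 probe set per gene gave -0.26 (FACIT) and -1.05 (multiplexin). With an array left out, medians ran from -0.28 to -0.11 for all collagens, from -0.77 to -0.26 for type VI and from -0.25 to -0.07 for type IV, short-chain medians ran from -0.39 to 0.0072, transmembrane ones from 0.073 to 0.26, fibrillar ones from -0.88 to -0.39, Col4a2 from -0.42 to 0.075, Col4a5 from -0.27 to 0.037, and Col23a1 from -0.053 to 0.30. Beyond what their construction shows, the causes were not tested.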
